A study of Homo sapiens with 12 samples.

Results

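Genes of the cytochrome P450 family were followed in 12 RNA-seq libraries of 2 human cancer cell lines. The family was taken as every gene symbol that begins with CYP and a digit, leaving out the sterol demethylase CYP51A1, pseudogene names ending in P or in P and digits, and names with a hyphen. Of 27968 symbols in each table, 69 begin with CYP and a digit, and 55 of these met the rule. A549 is a lung adenocarcinoma line, and MDA-MB-231 is a breast cancer line that grows with a mesenchymal shape. Both lines were kept in DMEM with 10% FBS. Cells were collected on day 4 of 3D culture in Matrigel, a laminin-rich gel of basement membrane proteins, or at about 80% confluence in flat 2D culture, which gave 4 groups of 3 libraries: A549 3D, A549 2D, MDA-MB-231 3D and MDA-MB-231 2D. RNA was taken with TRIZOL, and the libraries were stranded and made from total RNA after removal of ribosomal RNA. The labels state that no treatment was given and name no gene change in any group. The stated purpose was to find genes that the extracellular matrix controls in cancer cells. Each line is a single cell population kept in culture, and whether the 3 libraries of a group come from 3 separate cultures is not stated, so the p-values below measure the spread between these libraries, which may be technical.

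P450 enzymes are heme proteins that insert an oxygen atom into lipid-like substrates, using electrons passed to them by P450 oxidoreductase in the endoplasmic reticulum or by ferredoxin in mitochondria. Some of them clear drugs and carcinogens, others make or break down sterols, bile acids, vitamin D, retinoic acid and fatty acid mediators, and a few have no settled substrate. In lung, enzymes of families CYP1, CYP2 and CYP3 are known for activating inhaled carcinogens, and in breast CYP1B1 is known for oxidising estrogens.

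Total expected counts ran between 5609327 and 28171901 per library, and both ends of that range were A549 3D libraries. Libraries from Matrigel differed from 2D libraries in more than the genes described here. RNA fragments averaged 138 ± 3.67 bases for A549 3D, against 181 ± 5.83 bases for A549 2D, and 185 ± 3.37 bases for MDA-MB-231 3D, against 213 ± 4.50 bases for MDA-MB-231 2D (SD, n = 3 each). Ribosomal RNA genes took 8.26 ± 7.19% of counts for A549 3D, against 0.401 ± 0.0862% for A549 2D, and 4.84 ± 1.43% for MDA-MB-231 3D, against 1.15 ± 0.0273% for MDA-MB-231 2D (SD, n = 3 each). Each of these 4 differences had no overlap between libraries and an exact two-sided permutation p of 0.1, the smallest that 3 against 3 allows. A549 3D replicate 1 had the highest ribosomal share, at 16.5%, and replicates of A549 3D varied most, with a biological coefficient of variation of 0.179, while those of the other 3 groups gave 0.0368 to 0.0563. The part these features play in the values below was not tested. The main fit used a single estimate of spread per gene, shared by all groups. Its p-values and standard errors can therefore understate the spread between A549 3D libraries. In bulk RNA, fewer cells that express a gene and less RNA per cell cannot be told apart.

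A P450 gene was counted as expressed in a group when it had at least 1 CPM (counts as a share of the library total, scaled between libraries by TMM) in all 3 libraries. By that measure 15 of the 55 genes were expressed in A549 3D and 15 in A549 2D. MDA-MB-231 expressed 11 in 3D and 13 in 2D. In all, 21 genes were expressed in at least 1 group and 7 in all 4 groups, namely CYP1B1, CYP2R1, CYP26B1, CYP2U1, CYP4V2, CYP2S1 and CYP20A1. A mean of at least 1 TPM (the deposited relative abundance, which is also corrected for transcript length) was reached by 12, 14, 11 and 13 genes in the same order of groups. No read was assigned in any library to CYP3A43, CYP11B2, CYP4A11 or CYP4F8. The low-count filter of edgeR kept 22 of the 55, and no statement below about tested members covers the other 33.

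**Figure D1:**
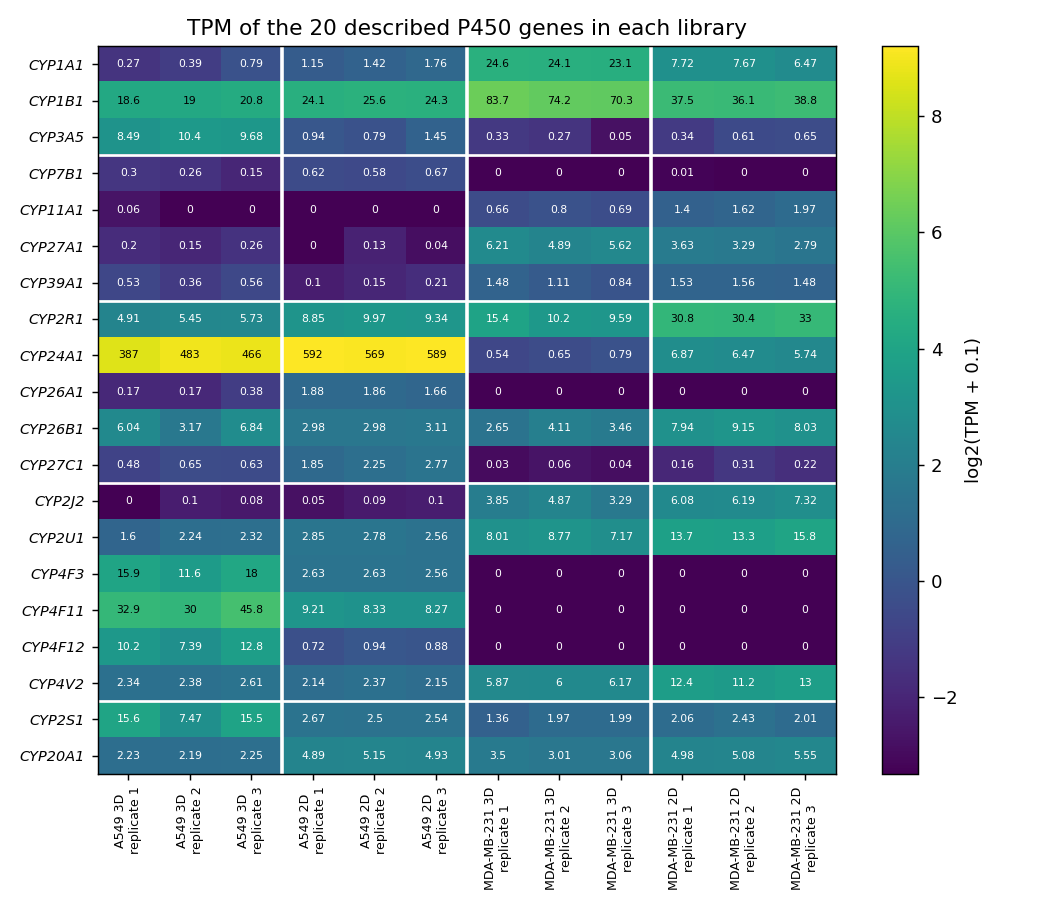
Deposited TPM of the 20 described P450 genes (rows, in order of substrate class, separated by white lines) in the 12 libraries (columns), with colour on a log2(TPM + 0.1) scale and the TPM printed in each cell. CYP24A1 stands highest in the 6 A549 libraries, CYP1B1 in the 6 MDA-MB-231 libraries, and CYP4F3, CYP4F11 and CYP4F12 are at 0 in all MDA-MB-231 libraries.

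On the TPM scale the 2 lines carried different leading enzymes. CYP24A1, which breaks down the vitamin D hormone, averaged 445 ± 51.2 TPM in A549 3D and 583 ± 12.3 TPM in A549 2D, and 0.660 ± 0.125 TPM in MDA-MB-231 3D and 6.36 ± 0.573 TPM in MDA-MB-231 2D (SD, n = 3 each). It made up 75.8% to 82.0% of the summed TPM of the 55 genes in A549 3D libraries and 88.8% to 89.5% in A549 2D libraries. CYP1B1, which oxidises estrogens and polycyclic hydrocarbons, led in MDA-MB-231, with 50.3% to 52.4% of the sum in 3D and 26.2% to 26.9% in 2D. The sum over all 55 genes was 571 ± 54.3 TPM in A549 3D and 654 ± 11.3 TPM in A549 2D, and 148 ± 10.99 TPM in MDA-MB-231 3D and 140.5 ± 3.72 TPM in MDA-MB-231 2D (SD, n = 3 each). Without the leading gene of each library the sum was 126 ± 21.5 TPM in A549 3D and 70.5 ± 1.29 TPM in A549 2D, but 72.3 ± 4.34 TPM in MDA-MB-231 3D and 103 ± 2.45 TPM in MDA-MB-231 2D. The enzymes of fatty acids summed to 66.3 ± 14.3 TPM in A549 3D and 17.1 ± 0.542 TPM in A549 2D, with no overlap between libraries. The enzymes of foreign compounds summed to 101 ± 7.78 TPM in MDA-MB-231 3D and 46.0 ± 0.750 TPM in MDA-MB-231 2D, again with no overlap.

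**Figure D2:**
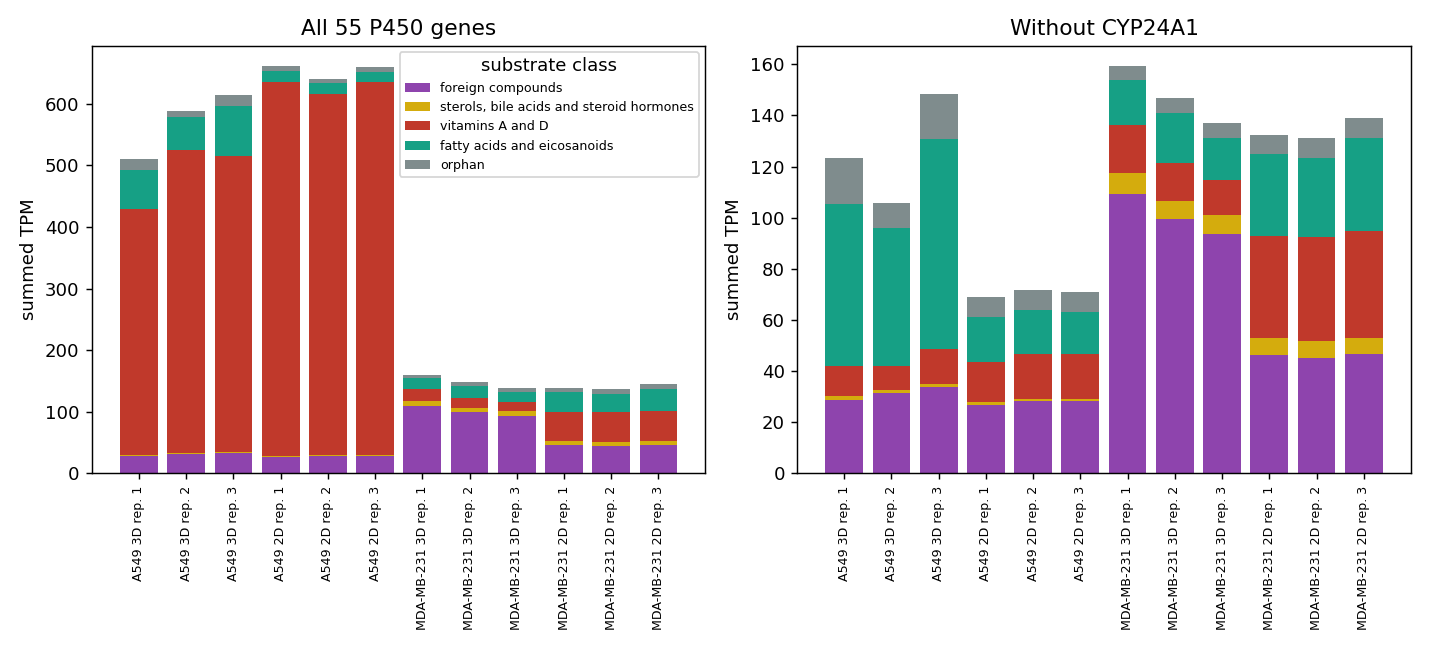
Summed TPM of the 55 P450 genes in each library, split by substrate class, with all genes (left) and with CYP24A1 left out (right, a different vertical scale). The fatty acid class is larger in A549 3D than in A549 2D libraries, the foreign compound class is larger in MDA-MB-231 3D than in MDA-MB-231 2D libraries, and CYP24A1 fills most of each A549 bar on the left.

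In A549, growth in Matrigel went with higher counts for 4 of 6 tested enzymes of fatty acids (none fell), for CYP3A5 and for CYP2S1, and with lower counts for CYP26A1, CYP27C1 and CYP7B1. In MDA-MB-231 it went with higher CYP1A1, CYP1B1 and CYP27A1 and with lower counts for 4 of 6 tested enzymes of vitamins A and D (none rose). CYP26A1, among those 6, had no read in MDA-MB-231. Of the 22 tested genes, 11 rose, 5 fell and 6 did not pass in A549 3D against A549 2D (edgeR's quasi-likelihood test, Benjamini-Hochberg adjusted p under 0.05). CYP3A7, among those that rose, passed the low-count filter only through A549 3D, so its rise is not independent of the filter. Of all 15304 genes tested, 65.6% passed in that comparison, 34.1% higher and 31.5% lower. In MDA-MB-231 3D against MDA-MB-231 2D, 3 rose, 8 fell and 11 did not pass, beside 67.6% of all genes tested, 33.4% higher and 34.2% lower. Among the 11 were CYP26A1, CYP4F3, CYP4F11 and CYP4F12, which had no read in MDA-MB-231 and so could show no change there. The median log2 fold change of the 22 was 0.58 in A549 and -0.29 in MDA-MB-231, against 0.03 and 0 for all genes tested. The members without a read entered the MDA-MB-231 median at 0. The 3D change differed between the lines for 12 of the 22 genes (54.5%), 9 of them with the higher change in A549. This share is near the 56.1% of all genes tested, 29.3% with the higher and 26.7% with the lower change in A549. Members without a read in MDA-MB-231 could not pass this comparison of changes. Without A549 3D replicate 1 the counts in A549 were 12 higher and 5 lower.

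The split between higher and lower calls depended on the scale. On log2(TPM + 1), fitted with limma, the median of all genes tested moved to -0.38 in A549 3D against 2D and to -0.25 in MDA-MB-231 3D against 2D, so a TPM difference is read against those values. There, 8 of the 22 were higher and 9 lower in A549 3D, and 3 were higher and 11 lower in MDA-MB-231 3D. All fold changes below are on TMM-scaled CPM unless TPM is named.

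**Figure D3:**
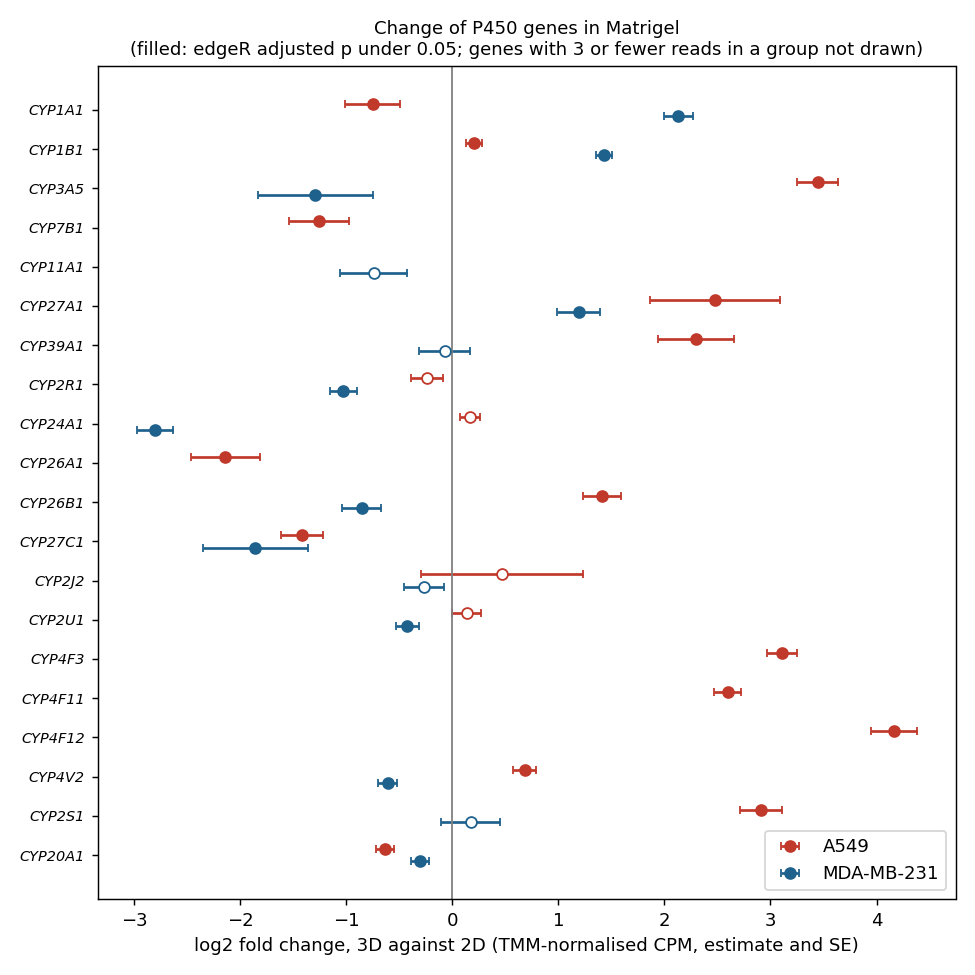
Log2 fold change of each described P450 gene, 3D against 2D, in A549 and in MDA-MB-231 (edgeR estimate with its standard error). Filled points passed at an adjusted p under 0.05, and genes with 3 or fewer reads in a group of that line are not drawn. CYP1A1, CYP3A5, CYP26B1 and CYP4V2 passed in both lines with opposite signs, though not under every alternative for CYP1A1, CYP3A5 and CYP4V2.

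Promoter sequences are shown for genes whose level changed between cultures, to set the letters before the start site beside the values. RefSeq windows on GRCh38.p14 were found for 16 of the 20 described genes (22 windows), and those without an entry were CYP1B1, CYP24A1, CYP7B1 and CYP4F12. Each sequence gives the 250 bases before an annotated start, read 5′ to 3′ along the gene's strand, with matched motifs in capitals. CYP4F11, CYP1A1, CYP4F3 and CYP2S1 were among the 8 highest genes by mean TPM that passed a 3D comparison, while CYP3A5 and CYP26A1 were added after their matches were seen. Of the other 4 highest genes, CYP24A1 and CYP1B1 have no entry, and CYP2R1 (3 windows) and CYP2U1 (1 window) hold none of the letters sought and are not printed. CYP4F11 and CYP26A1 each have 1 more window, not printed, that holds none either. The letters sought on both strands were GCGTG (the core bound by AHR with ARNT), TGACNNNGC (the core of the antioxidant response element), AGGTCA and AGTTCA (cores bound by nuclear receptors), TATAAA (the TATA box), and 2 longer motifs that hold those cores and so overlap them. The longer motifs were a direct repeat of AGTTCA with 5 bases between the copies, and an everted repeat of TGAACT, 6 bases and AGGTCA. Of 35116 RefSeq promoter windows of the same length, GCGTG was in 32.2%, TGACNNNGC in 10.9%, AGGTCA in 12.1%, AGTTCA in 8.80% and TATAAA in 10.7%. Each longer repeat was in 3 windows, or 0.00854%. Each was sought in a single fixed spelling, and the genes shown with them were added after their matches were seen. This share is therefore no measure of how unusual those matches are. The windows are those of CYP1A1 (chr15:74725529-74725778, minus strand), CYP2S1 (chr19:41192969-41193218, plus strand), CYP4F11 (chr19:15934868-15935117, minus strand), CYP4F3 (chr19:15641062-15641311, plus strand), CYP3A5 (chr7:99679997-99680246, minus strand) and CYP26A1 (chr10:93073643-93073892, plus strand).
CYP1A1: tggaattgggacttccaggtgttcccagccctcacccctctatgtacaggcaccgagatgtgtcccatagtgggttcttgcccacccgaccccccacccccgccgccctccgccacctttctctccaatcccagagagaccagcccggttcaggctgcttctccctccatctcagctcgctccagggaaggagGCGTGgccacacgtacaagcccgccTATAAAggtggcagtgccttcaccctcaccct
CYP2S1: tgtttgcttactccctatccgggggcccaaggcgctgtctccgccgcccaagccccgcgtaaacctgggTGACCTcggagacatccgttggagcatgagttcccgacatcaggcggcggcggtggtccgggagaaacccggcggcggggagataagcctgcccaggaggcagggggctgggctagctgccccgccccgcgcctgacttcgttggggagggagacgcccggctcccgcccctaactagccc
CYP4F11: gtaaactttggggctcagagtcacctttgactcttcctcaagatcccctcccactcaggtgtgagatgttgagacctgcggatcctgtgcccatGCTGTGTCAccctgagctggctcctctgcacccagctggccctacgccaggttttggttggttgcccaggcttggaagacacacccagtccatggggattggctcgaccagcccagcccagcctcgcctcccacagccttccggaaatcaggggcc
CYP4F3: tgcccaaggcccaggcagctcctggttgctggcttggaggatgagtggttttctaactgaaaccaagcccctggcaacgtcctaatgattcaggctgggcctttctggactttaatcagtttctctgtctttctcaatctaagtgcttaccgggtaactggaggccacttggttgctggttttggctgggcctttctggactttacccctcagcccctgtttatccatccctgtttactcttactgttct
CYP3A5: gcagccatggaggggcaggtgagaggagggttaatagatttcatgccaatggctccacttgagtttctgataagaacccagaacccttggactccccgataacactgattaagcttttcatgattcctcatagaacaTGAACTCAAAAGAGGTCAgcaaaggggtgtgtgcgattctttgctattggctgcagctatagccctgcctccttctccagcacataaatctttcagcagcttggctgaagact
CYP26A1: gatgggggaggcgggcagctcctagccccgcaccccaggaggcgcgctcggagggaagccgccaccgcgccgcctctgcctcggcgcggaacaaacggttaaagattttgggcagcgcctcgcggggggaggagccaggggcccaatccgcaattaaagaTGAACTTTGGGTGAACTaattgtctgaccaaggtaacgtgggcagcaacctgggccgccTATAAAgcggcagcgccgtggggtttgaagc
The CYP1A1 window holds GCGTG at 57 to 53 bases and TATAAA at 32 to 27 bases before the start. The CYP2S1 window holds the reverse complement of AGGTCA at 181 to 176 bases. The CYP4F11 window holds the reverse complement of TGACNNNGC at 156 to 148 bases, while none of the letters sought is in the CYP4F3 window. In CYP3A5 the repeat that ends in AGGTCA lies at 113 to 96 bases, and in CYP26A1 the reverse complement of the repeat of AGTTCA lies at 90 to 74 bases, followed by TATAAA at 31 to 26 bases. These matches are letters in a window and show no binding in these cells.

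The enzymes of foreign compounds included 17 members, of which 4 were tested. CYP1A1 is the classic target of the aryl hydrocarbon receptor (AHR) and oxidises polycyclic hydrocarbons. It had 36.3, 36.2 and 35.2 CPM in MDA-MB-231 3D, against 8.73, 8.63 and 7.16 CPM in MDA-MB-231 2D. It had 0.752, 1.17 and 2.13 CPM in A549 3D, against 2.27, 2.82 and 3.32 CPM in A549 2D. In each line the groups did not overlap, but the order was opposite. The log2 fold change of CYP1A1 was 2.13 ± 0.14 (SE) in MDA-MB-231 (adjusted p = 4.4e-09) and -0.75 ± 0.26 in A549 (adjusted p = 0.018). The A549 change did not pass without A549 2D replicate 3 (-0.63, adjusted p = 0.067) and was -1.60 without A549 3D replicate 3. The difference between the lines in the 3D change was -2.88 ± 0.29 (adjusted p = 6.7e-07).

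CYP1B1, also an AHR target, had 245, 221 and 213 CPM in MDA-MB-231 3D, against 84.7, 81.1 and 85.8 CPM in MDA-MB-231 2D. In A549 it had 106, 113 and 110.3 CPM in 3D, against 94.3, 101 and 91.0 CPM in 2D. All Matrigel libraries were above all 2D libraries of their line, by a wide gap in MDA-MB-231 and a narrow gap in A549. The log2 fold change of CYP1B1 was 1.43 ± 0.08 (SE) in MDA-MB-231 (adjusted p = 6.8e-10). In A549 it was 0.20 ± 0.08 (adjusted p = 0.028), but -0.33 on log2(TPM + 1), and on CPM it did not pass without A549 2D replicate 1 (adjusted p = 0.096) or replicate 3 (adjusted p = 0.13). The change of CYP1B1 differed between the lines by -1.23 ± 0.11 (adjusted p = 1.6e-07).

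CYP3A5 is a drug-oxidising enzyme of liver, gut and lung. It had 17.0, 21.7 and 17.8 CPM in A549 3D, against 1.55, 1.44 and 2.14 CPM in A549 2D. It had 0.178, 0.210 and 0.0548 CPM in MDA-MB-231 3D, against 0.211, 0.452 and 0.434 CPM in MDA-MB-231 2D. The A549 groups lie far apart, and the MDA-MB-231 values are near those of a few reads. The log2 fold change of CYP3A5 was 3.44 ± 0.20 (SE) in A549 (adjusted p = 6.1e-10) and -1.29 ± 0.54 in MDA-MB-231 (adjusted p = 0.046). The MDA-MB-231 change of CYP3A5 did not pass without MDA-MB-231 2D replicate 2 (adjusted p = 0.12) or 3 (0.12), without MDA-MB-231 3D replicate 1 (0.066) or 3 (0.21), or with DESeq2 (0.059). The change differed between the lines by 4.74 ± 0.56 (adjusted p = 4.2e-06). CYP3A7, the fetal liver enzyme beside it on chromosome 7, was named after its values were seen. It had 81 reads in A549 3D, against 2 reads in A549 2D, a ratio of 57.6 after scaling to library size with a 95% counting interval of 15.4 to 484. Transcripts of CYP3A5 and CYP3A7 are 88.0% identical over their aligned bases, and the deposited CYP3A5 count was not whole (tolerance 0.001) in 6 of 12 libraries. In 2 of these the CYP3A7 count was not whole either, and in the other 4 it was whole, so reads divided between this pair are possible in those 2 libraries, both from A549 3D.

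Among 12 enzymes of sterols, bile acids and steroid hormones, 4 were tested. CYP27A1, the mitochondrial enzyme that starts the acidic route of bile acid synthesis, had 7.73, 6.19 and 7.23 CPM in MDA-MB-231 3D, against 3.46, 3.12 and 2.60 CPM in MDA-MB-231 2D. In A549 it had 0.501, 0.391 and 0.592 CPM in 3D, against 0, 0.213 and 0.0562 CPM in 2D. The Matrigel libraries were above the 2D libraries in each line, with A549 far below MDA-MB-231. The log2 fold change of CYP27A1 was 1.19 ± 0.20 (SE) in MDA-MB-231 (adjusted p = 7.5e-05) and 2.48 ± 0.61 in A549 (adjusted p = 0.0022). In A549 it was 3.96 without A549 2D replicate 2, and it did not pass on log2(TPM + 1) (adjusted p = 0.10). The difference between the lines was 1.28 ± 0.65 (adjusted p = 0.11), but leaving out A549 2D replicate 2 gave 2.77 (adjusted p = 0.013), and log2(TPM + 1) gave -0.45 (adjusted p = 0.014). The added 1 exceeds the A549 means of CYP27A1, 0.203 TPM in 3D and 0.0567 TPM in 2D.

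CYP39A1, a hydroxylase of brain-type oxysterols, had 1.38, 0.977 and 1.34 CPM in A549 3D, against 0.166, 0.266 and 0.337 CPM in A549 2D. In MDA-MB-231 it had 1.96, 1.42 and 1.15 CPM in 3D, against 1.56, 1.58 and 1.48 CPM in 2D. Only the A549 groups are separate. CYP39A1 rose in A549 by 2.29 ± 0.36 (SE, log2, adjusted p = 4.0e-05), its value in MDA-MB-231 was -0.07 ± 0.24 (adjusted p = 0.83; -0.25 and 0.043 on log2(TPM + 1)), and the difference was 2.36 ± 0.44 (adjusted p = 2.6e-04). CYP7B1, an oxysterol hydroxylase, moved the other way in A549, with 2.01, 1.76 and 1.10 CPM in 3D, against 3.48, 3.35 and 3.71 CPM in 2D. Its log2 fold change there was -1.25 ± 0.28 (adjusted p = 0.0015), and in MDA-MB-231 it had 0 reads in 3D and 1 read in 2D. CYP11A1, which cleaves the side chain of cholesterol to start steroid hormone synthesis, had 0.711, 0.839 and 0.767 CPM in MDA-MB-231 3D, against 1.10, 1.31 and 1.52 CPM in MDA-MB-231 2D. The groups did not overlap, but the log2 fold change of CYP11A1 of -0.74 ± 0.31 had an adjusted p of 0.0502, and it passed with a stricter filter on counts (adjusted p = 0.042) and on log2(TPM + 1) (-0.63, adjusted p = 9.6e-06). In A549 it had 1 read in 3D and 0 in 2D.

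The vitamin A and D class had 7 members, with 6 tested. CYP24A1 had 1376, 1794 and 1544 CPM in A549 3D, against 1439, 1389.5 and 1368 CPM in A549 2D. The A549 groups overlapped, with a log2 fold change of 0.17 ± 0.10 (SE, adjusted p = 0.14). Leaving out A549 3D replicate 1 gave 0.24 (adjusted p = 0.031), and log2(TPM + 1) gave -0.40 (adjusted p = 0.0027). In MDA-MB-231, CYP24A1 had 0.977, 1.21 and 1.48 CPM in 3D, against 9.49, 8.94 and 7.86 CPM in 2D. Every 3D library was below every 2D library of MDA-MB-231, and CYP24A1 fell by 2.80 ± 0.17 on the log2 scale (adjusted p = 3.0e-09). The change differed between the lines by 2.97 ± 0.20 (adjusted p = 1.1e-08). CYP2R1, which hydroxylates vitamin D to its circulating form, had 13.1, 8.75 and 8.38 CPM in MDA-MB-231 3D, against 19.8, 19.4 and 20.8 CPM in MDA-MB-231 2D. It fell there by 1.03 ± 0.13 (log2, adjusted p = 4.5e-06). In A549 it had 8.27, 9.57 and 8.99 CPM in 3D, against 10.1, 11.3 and 10.1 CPM in 2D, with a log2 fold change of -0.24 ± 0.15 (adjusted p = 0.18) that was -0.71 (adjusted p = 5.8e-04) on log2(TPM + 1). The difference between the lines was 0.79 ± 0.20 (adjusted p = 0.0033). CYP27B1, which makes the active hormone, is named for its place in the pathway, after its values were seen. Its group means lay between 0.610 and 0.815 CPM, and it did not pass in either 3D comparison.

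Retinoic acid is broken down by CYP26 enzymes, and the 2 tested members moved in opposite directions in A549. CYP26A1 had 0.376, 0.391 and 0.789 CPM in A549 3D, against 2.93, 2.87 and 2.47 CPM in A549 2D. All A549 3D values were below all A549 2D values, the log2 fold change was -2.14 ± 0.32 (SE, adjusted p = 1.1e-04), and it was -2.83 without A549 3D replicate 3. No read of CYP26A1 was found in MDA-MB-231. CYP26B1 had 30.3, 16.4 and 31.7 CPM in A549 3D, against 10.3, 10.3 and 10.2 CPM in A549 2D, and A549 3D replicate 2 was the lowest of its group. In MDA-MB-231 it had 6.84, 10.5 and 9.20 CPM in 3D, against 15.6, 17.7 and 15.6 CPM in 2D. CYP26B1 therefore rose in A549 by 1.41 ± 0.18 (log2, adjusted p = 5.4e-06) and fell in MDA-MB-231 by 0.85 ± 0.18 (adjusted p = 6.4e-04), a difference of 2.26 ± 0.26 (adjusted p = 2.6e-06). CYP27C1, which converts vitamin A to its dehydro form in skin, had 2.51, 3.52 and 3.04 CPM in A549 3D, against 6.58, 8.03 and 9.38 CPM in A549 2D. In MDA-MB-231 it had 0.0889, 0.157 and 0.110 CPM in 3D, against 0.338, 0.632 and 0.434 CPM in 2D. It fell in both lines, by 1.42 ± 0.20 in A549 (adjusted p = 1.3e-05) and by 1.86 ± 0.50 in MDA-MB-231 (adjusted p = 0.0036). The difference between the lines was 0.44 ± 0.52 (adjusted p = 0.53) on CPM but -0.81 (adjusted p = 2.3e-04) on log2(TPM + 1). The added 1 exceeds the MDA-MB-231 means of CYP27C1, 0.0433 TPM in 3D and 0.23 TPM in 2D.

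Enzymes of fatty acids and eicosanoids numbered 12, with 6 tested. CYP4F3 inactivates leukotrienes in neutrophils, CYP4F11 hydroxylates the tails of fatty acids and vitamin K, and CYP4F12 acts on fatty acids in liver and gut. CYP4F11 had 112, 105 and 143 CPM in A549 3D, against 21.5, 19.8 and 18.7 CPM in A549 2D. CYP4F3 had 51.6, 39.3 and 54.2 CPM in A549 3D, against 5.80, 5.85 and 5.39 CPM in A549 2D. CYP4F12 had 19.6, 14.7 and 22.5 CPM in A549 3D, against 0.940, 1.22 and 1.07 CPM in A549 2D. Every A549 3D library was above every A549 2D library for each of the 3 genes, and A549 3D replicate 2 was the lowest of its group each time. The log2 fold changes were 2.60 ± 0.13 for CYP4F11 (SE, adjusted p = 6.8e-09), 3.11 ± 0.14 for CYP4F3 (adjusted p = 2.8e-09) and 4.16 ± 0.21 for CYP4F12 (adjusted p = 1.1e-08). On the TPM scale the order of levels in A549 3D was 36.2 ± 8.41 for CYP4F11, 15.2 ± 3.26 for CYP4F3 and 10.1 ± 2.70 for CYP4F12 (SD, n = 3), and the ranges of the last pair overlapped.

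The CYP4F genes lie in a cluster on chromosome 19. Along it the genes run CYP4F8, CYP4F3, CYP4F12, 4 olfactory receptor genes, CYP4F2 and CYP4F11, with 1 unnamed locus between the receptors and CYP4F2. The neighbours CYP4F8 and CYP4F2 did not pass the filter: CYP4F8 had no read, and CYP4F2 had 8 reads in A549 3D and 0 in A549 2D. Transcripts of the 3 expressed genes are 84.5% to 86.1% identical over their aligned bases, so shared reads are possible. The CYP4F11 count was whole in all 12 libraries, that of CYP4F12 in all but 1 and that of CYP4F3 in all but 2. No read of CYP4F3, CYP4F11 or CYP4F12 was found in the 6 MDA-MB-231 libraries, so their 3D change cannot be compared between the lines.

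The other tested members of this class were present in both lines or mainly in MDA-MB-231. CYP4V2, a fatty acid hydroxylase mutated in a crystalline retinal dystrophy, had 12.2, 12.9 and 12.6 CPM in A549 3D, against 7.63, 8.51 and 7.31 CPM in A549 2D. In MDA-MB-231 it had 15.6, 16.3 and 17.0 CPM in 3D, against 25.6, 23.0 and 26.1 CPM in 2D. CYP4V2 rose in A549 by 0.68 ± 0.10 (SE, log2, adjusted p = 3.5e-05) and fell in MDA-MB-231 by 0.61 ± 0.09 (adjusted p = 1.5e-05), a difference of 1.29 ± 0.14 (adjusted p = 1.3e-06). The A549 rise did not pass on log2(TPM + 1) (0.10, adjusted p = 0.30). CYP2U1, a hydroxylase of long-chain fatty acids, had 21.6, 24.01 and 19.995 CPM in MDA-MB-231 3D, against 28.5, 27.6 and 32.1 CPM in MDA-MB-231 2D. It fell there by 0.42 ± 0.11 (adjusted p = 0.0028). In A549 it had 8.40, 12.3 and 11.3 CPM in 3D, against 10.3, 10.0 and 8.82 CPM in 2D, which overlap, with a log2 fold change of 0.14 ± 0.14 (adjusted p = 0.39) that was -0.30 (adjusted p = 0.031) on log2(TPM + 1). The change of CYP2U1 differed between lines by 0.56 ± 0.17 (adjusted p = 0.013), but not without A549 3D replicate 3 (0.46, adjusted p = 0.064). CYP2J2, which makes epoxides of arachidonic acid, had 3.91, 4.88 and 3.45 CPM in MDA-MB-231 3D, against 4.60, 4.61 and 5.56 CPM in MDA-MB-231 2D. The groups overlapped, with a log2 fold change of -0.26 ± 0.19 (adjusted p = 0.22), and on log2(TPM + 1) it was -0.60 (adjusted p = 3.3e-04). In A549 no library had over 0.195 CPM of CYP2J2.

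Of 7 members not placed in any of these substrate classes, 2 were tested. CYP2S1 is expressed in epithelia outside the liver and can be induced through AHR. It had 44.1, 22.1 and 40.8 CPM in A549 3D, against 5.14, 4.84 and 4.66 CPM in A549 2D. In MDA-MB-231 it had 1.96, 2.88 and 2.96 CPM in 3D, against 2.28, 2.66 and 2.17 CPM in 2D. The A549 groups are separate, with replicate 2 the lowest in 3D, and the MDA-MB-231 groups overlap. The log2 fold change of CYP2S1 was 2.91 ± 0.20 (SE) in A549 (adjusted p = 4.7e-09) and 0.18 ± 0.28 in MDA-MB-231 (adjusted p = 0.60), where its sign turned on log2(TPM + 1) at -0.20. The difference between lines was 2.73 ± 0.34 (adjusted p = 6.8e-06). CYP20A1 had 27.3, 28.1 and 25.8 CPM in A549 3D, against 41.5, 43.9 and 39.9 CPM in A549 2D. In MDA-MB-231 it had 22.2, 19.4 and 20.1 CPM in 3D, against 24.5, 24.8 and 26.6 CPM in 2D. It fell in both lines, by 0.64 ± 0.08 in A549 (adjusted p = 7.9e-06) and by 0.31 ± 0.08 in MDA-MB-231 (adjusted p = 0.0043). The difference was -0.33 ± 0.12 (adjusted p = 0.027) and did not pass without A549 2D replicate 2, A549 3D replicate 3, or MDA-MB-231 2D replicate 1 or 2 (adjusted p = 0.051 to 0.070).

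**Figure D4:**
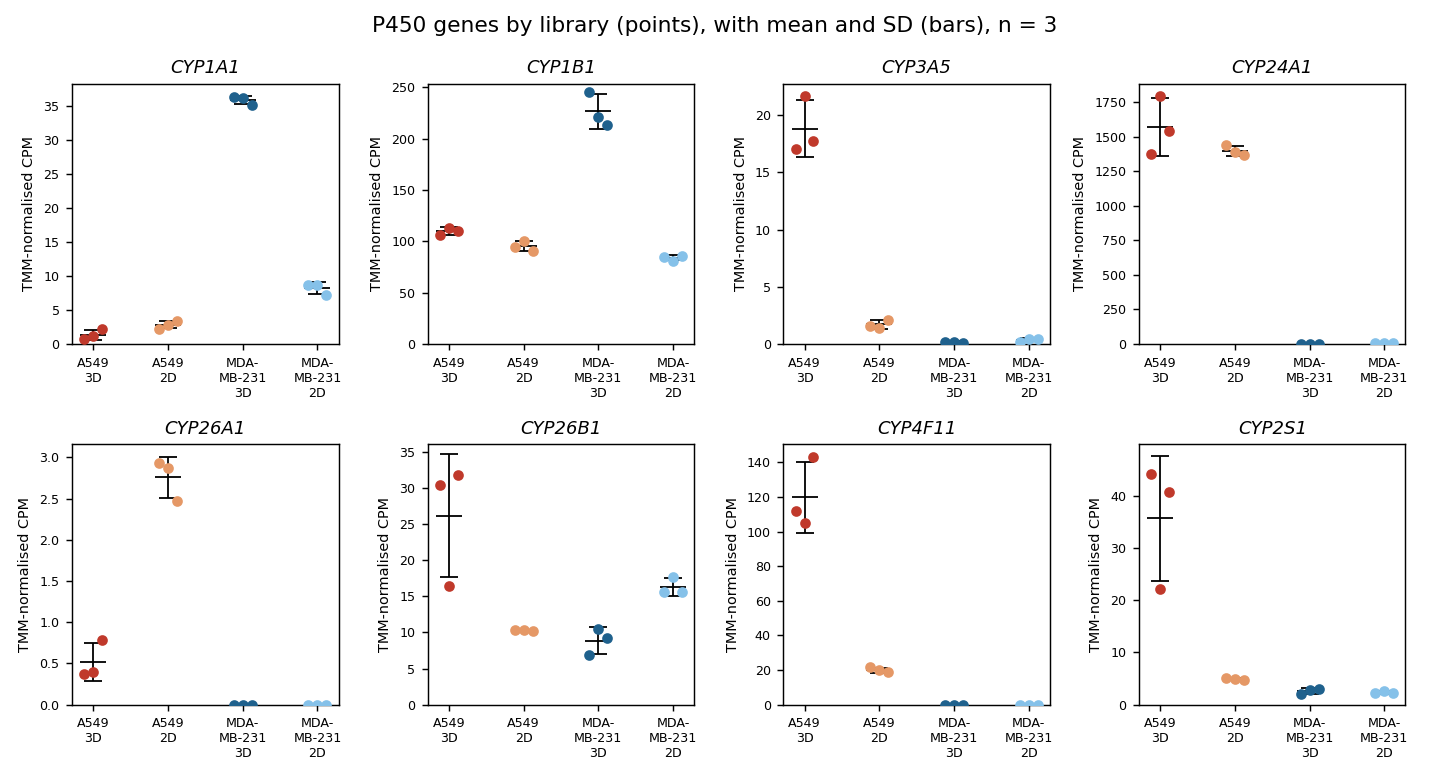
TMM-normalised CPM of 8 P450 genes in each library (points), with the mean and SD of each group of 3 (bars), on linear axes from 0. CYP1A1 and CYP1B1 are highest in MDA-MB-231 3D, CYP3A5, CYP26B1, CYP4F11 and CYP2S1 in A549 3D, and CYP26A1 in A549 2D, by group mean, while CYP24A1 is high in both A549 groups.

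Set side by side, the lines differed in which P450 genes they carried in either culture. In 2D, 11 of 22 tested genes were higher and 9 lower in A549 than in MDA-MB-231, beside 81.6% of all genes tested that passed, 42.8% higher and 38.8% lower. In 3D, 12 were higher and 7 lower, beside 83.0%, of which 43.9% higher and 39.2% lower as shares of all genes. CYP3A7, CYP4F3, CYP4F11, CYP4F12, CYP26A1 and CYP7B1 passed the low-count filter only through A549, and CYP11A1 and CYP2J2 only through MDA-MB-231. Their calls between the lines are therefore not independent of the filter. CYP24A1 was higher in A549 by 10.29 ± 0.16 (SE, log2) in 3D (adjusted p = 1.0e-16) and by 7.32 ± 0.13 in 2D (adjusted p = 3.8e-16). Against the 0 reads in MDA-MB-231, and taking 3 reads per group as the floor, CYP4F11 was at least 2130.3-fold higher in A549 for 3D culture, and for 2D culture at least 459-fold higher. For CYP4F3 the bounds were at least 837-fold higher (3D) and 131-fold higher (2D). For CYP4F12 they were at least 338-fold higher (3D) and 24.8-fold higher (2D). The CYP26A1 bounds ran the other way across cultures, at least 10.5-fold higher (3D) and 63.4-fold higher (2D). CYP7B1 had no read in MDA-MB-231 3D and was at least 22.3-fold higher in A549 3D. In 2D its ratio was 242 on 192 reads in A549 and 1 in MDA-MB-231 (95% counting interval 42.9 to 9599).

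Other genes were higher in MDA-MB-231. CYP1A1 was lower in A549 by 4.43 ± 0.20 (SE, log2) in 3D (adjusted p = 6.4e-12), or by 5.28 without A549 3D replicate 3, and by 1.54 ± 0.18 in 2D (adjusted p = 7.0e-07). CYP2J2 was lower in A549 by 4.91 ± 0.38 in 3D (adjusted p = 6.7e-09), or by 5.61 without A549 3D replicate 3, and by 5.64 ± 0.34 in 2D (adjusted p = 3.3e-10). CYP27A1 was lower by 3.68 ± 0.30 in 3D (adjusted p = 1.3e-08) and by 4.96 ± 0.40 in 2D (adjusted p = 1.2e-08), or by 6.45 in 2D without A549 2D replicate 2. CYP11A1 was at least 23.8-fold lower in A549 2D, and in 3D the ratio was 30.1 on 1 read in A549 replicate 1 and 38 in MDA-MB-231 (95% counting interval 5.08 to 1219). Some genes stood close between the lines in 1 culture. CYP39A1 and CYP2R1 were lower in A549 2D by 2.55 ± 0.32 (adjusted p = 2.0e-06) and 0.93 ± 0.13 (adjusted p = 5.4e-06), but their 3D values of -0.19 ± 0.28 and -0.14 ± 0.15 did not pass on CPM. On log2(TPM + 1) those 3D values were -0.52 for CYP39A1 (adjusted p = 2.7e-04) and -0.97 for CYP2R1 (adjusted p = 2.5e-05). CYP26B1 was lower in A549 in 2D (-0.66 ± 0.18, adjusted p = 0.0027) and higher in 3D (1.60 ± 0.19, adjusted p = 8.0e-07). CYP1B1 was lower in A549 in 3D by 1.04 ± 0.08 (adjusted p = 2.7e-09). Its 2D value of 0.19 ± 0.07 (adjusted p = 0.032) did not pass with RLE scaling (adjusted p = 0.061) or without any of 5 single libraries, and it was -0.58 on log2(TPM + 1). CYP20A1 was higher in A549 on CPM in 3D (0.39 ± 0.09, adjusted p = 7.4e-04) and in 2D (0.72 ± 0.08, adjusted p = 4.7e-07), but its sign turned on log2(TPM + 1), at -0.38 and -0.05, where the median of all genes was -0.64 in 3D and -0.56 in 2D.

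The 33 members that were not tested had few reads, and the highest group mean was 0.557 TPM, for CYP4X1 in MDA-MB-231 3D. More of them were touched by a read in A549 3D than in the other groups: 26 of 33 there (78.8%), against 9 in A549 2D (27.3%). Of all 12664 untested genes, 41.1% had a read in A549 3D and 30.8% in A549 2D. In MDA-MB-231 the numbers were 11 (33.3%) in 3D and 14 (42.4%) in 2D, beside 24.2% and 27.8% of all untested genes. The summed level of the 33 was 3.83 ± 0.498 CPM in A549 3D and 1.23 ± 0.332 CPM in A549 2D, with no overlap between libraries (SD, n = 3 each). In MDA-MB-231 it was 1.39 ± 0.482 CPM in 3D and 0.956 ± 0.164 CPM in 2D, which overlap. The main drug-clearing enzymes of liver were among them. CYP3A4 had 9 reads in A549 3D, against 0 in A549 2D. CYP2E1 was a gene of MDA-MB-231 instead, with 21 reads for 3D, against 25 for 2D. CYP2B6 had 16 reads, CYP2A6 had 15 and CYP2A13, a lung enzyme that activates tobacco nitrosamines, had 10 in A549 3D, and each had 0 in the other 3 groups. These names were chosen after their counts were seen.

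Genes that serve P450 enzymes were described by lists, each with up to 2 members named by the smallest p. Of 12 tested redox partners, 6 rose and 2 fell in A549 3D, and 7 rose and 2 fell in MDA-MB-231 3D. The counts of this and the next lists are read against all genes tested, of which 34.1% rose and 31.5% fell in A549 3D, and 33.4% rose and 34.2% fell in MDA-MB-231 3D. The list's median log2 fold change was 0.40 in A549 and 0.59 in MDA-MB-231. On log2(TPM + 1) only 2 rose and 4 fell in A549, and 4 rose and 5 fell in MDA-MB-231. POR, the oxidoreductase that supplies microsomal P450 enzymes, was named for that role after its values were seen. It had 115 ± 26.0 CPM in A549 3D and 87.0 ± 3.69 CPM in A549 2D, and 28.3 ± 1.36 CPM in MDA-MB-231 3D and 19.9 ± 1.91 CPM in MDA-MB-231 2D (SD, n = 3 each). POR rose by 0.42 ± 0.12 (SE, log2) in A549 (adjusted p = 0.0070) and by 0.50 ± 0.13 in MDA-MB-231 (adjusted p = 0.0038). The A549 groups of POR overlapped, the rise did not pass without A549 3D replicate 3 (0.25, adjusted p = 0.051), and on log2(TPM + 1) the A549 value was -0.18 and the MDA-MB-231 value 0.08 (adjusted p = 0.69). CYB5B, a mitochondrial cytochrome b5, rose in A549 by 1.57 ± 0.07 (adjusted p = 6.1e-11) and fell in MDA-MB-231 by 0.44 ± 0.07 (adjusted p = 6.4e-05). CYB5A, the microsomal form, rose by 0.82 ± 0.08 in A549 (adjusted p = 2.3e-07) and by 0.68 ± 0.08 in MDA-MB-231 (adjusted p = 2.5e-06), though the A549 rise did not pass on log2(TPM + 1) (adjusted p = 0.077).

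Of 12 tested genes of heme synthesis and breakdown, 7 rose and 1 fell in A549 3D, and 10 rose and none fell in MDA-MB-231 3D (edgeR, with 0 lower also at an unadjusted p under 0.05). The share that rose was 58.3% in A549 and 83.3% in MDA-MB-231, beside 34.1% and 33.4% of all genes tested. The counts became 2 and 5 in A549 and 9 and 0 in MDA-MB-231 on log2(TPM + 1). HMOX1, which opens the heme ring, fell to 52.9 ± 14.4 CPM in A549 3D, against 164.6 ± 8.89 CPM in A549 2D (log2 fold change -1.60 ± 0.13, adjusted p = 4.9e-08). In MDA-MB-231 it rose to 20.1 ± 1.09 CPM in 3D, against 3.70 ± 0.140 CPM in 2D (2.44 ± 0.17, adjusted p = 9.6e-09). BLVRB, a biliverdin reductase, rose by 2.18 ± 0.10 in A549 (adjusted p = 7.7e-11) and by 2.22 ± 0.12 in MDA-MB-231 (adjusted p = 6.8e-10).

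The sensors of foreign compounds gave 4 higher and 1 lower of 9 tested in A549 3D, and 7 higher and 1 lower in MDA-MB-231 3D. The share that rose was 44.4% in A549, near the 34.1% of all genes tested, and 77.8% in MDA-MB-231, beside 33.4%. With limma on log2(TPM + 1) these counts were 1 and 4 in A549 and 3 and 1 in MDA-MB-231. AHR had 203 ± 33.8 CPM in A549 3D and 40.2 ± 3.15 CPM in A549 2D, and 184 ± 3.12 CPM in MDA-MB-231 3D and 112 ± 2.91 CPM in MDA-MB-231 2D (SD, n = 3 each). AHR rose by 2.33 ± 0.11 (SE, log2) in A549 (adjusted p = 5.8e-11) and by 0.71 ± 0.10 in MDA-MB-231 (adjusted p = 1.2e-05). Of 7 other AHR target genes, a list that shares NFE2L2 and AHRR with the sensors, 4 rose and 1 fell in A549 3D, and 3 rose and 2 fell in MDA-MB-231 3D. In MDA-MB-231 these shares of 42.9% and 28.6% are near the 33.4% and 34.2% of all genes tested, and in A549 they were 57.1% and 14.3%, beside 34.1% and 31.5%. Their numbers on log2(TPM + 1) were 3 and 1 in A549 and 2 and 2 in MDA-MB-231. TIPARP, a feedback repressor of AHR, fell by 0.94 ± 0.07 in A549 (adjusted p = 2.2e-08). In MDA-MB-231, TIPARP rose by 0.32 ± 0.07 (adjusted p = 7.5e-04), but was -0.12 on log2(TPM + 1). ALDH3A1, an aldehyde dehydrogenase, had 5644 ± 944 CPM in A549 3D and 728 ± 18.9 CPM in A549 2D, a log2 fold change of 2.96 ± 0.14 (adjusted p = 7.9e-11), and under 1 CPM on average in both MDA-MB-231 groups.

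**Figure D5:**
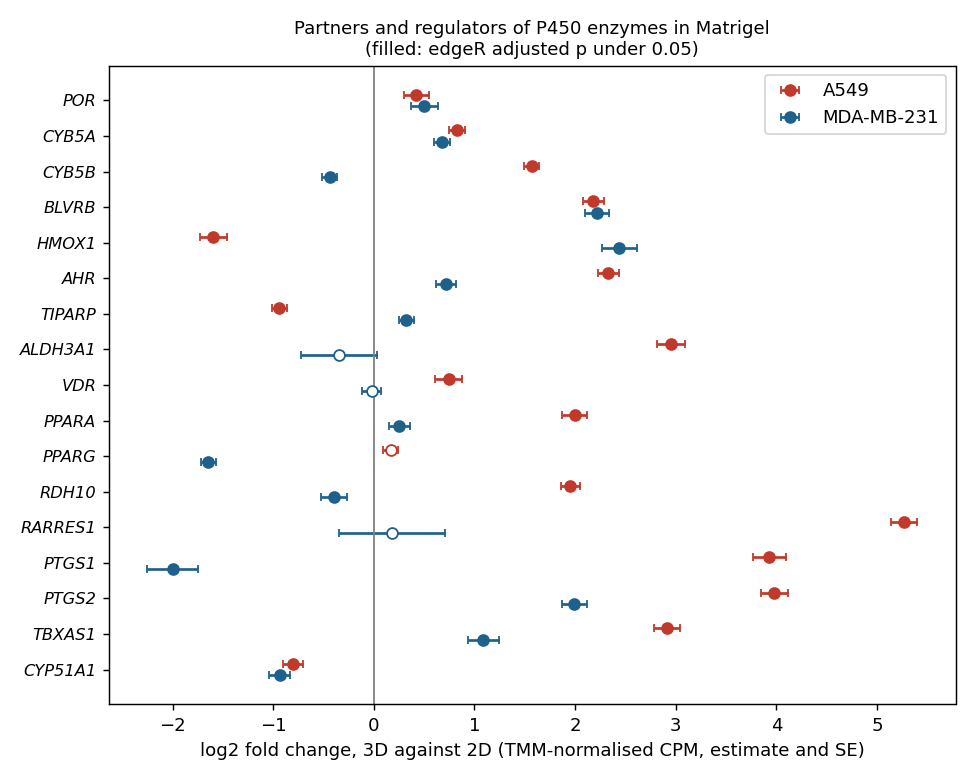
Log2 fold change, 3D against 2D, of 17 genes of electron supply, heme, sensing, retinoids and eicosanoids in A549 and MDA-MB-231 (edgeR estimate with its standard error, filled where the adjusted p was under 0.05). AHR, BLVRB, PTGS2 and TBXAS1 lie right of 0 in both lines, CYP51A1 lies left of 0 in both, and HMOX1, TIPARP, CYB5B, RDH10 and PTGS1 lie on opposite sides.

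Among 13 tested nuclear receptors for sterols, fatty acids and vitamins, 7 rose and 3 fell in A549 3D, and 6 rose and 1 fell in MDA-MB-231 3D. As shares, 53.8% rose and 23.1% fell in A549, beside 34.1% and 31.5% of all genes tested, and 46.2% rose and 7.69% fell in MDA-MB-231, beside 33.4% and 34.2%. The TPM scale gave 2 and 6 in A549 and 3 and 3 in MDA-MB-231. VDR, the vitamin D receptor that switches on CYP24A1, was named for that role after its values were seen. It rose by 0.74 ± 0.13 (SE, log2) in A549 (adjusted p = 1.4e-04; not passed on log2(TPM + 1), adjusted p = 0.44), where CYP24A1 did not pass. In MDA-MB-231, where CYP24A1 fell, VDR had 13.9 ± 0.971 CPM in 3D and 14.03 ± 0.349 CPM in 2D, which overlap (-0.02 ± 0.10, adjusted p = 0.88; -0.37, adjusted p = 0.0022, on log2(TPM + 1)). PPARA, a receptor for fatty acids, rose in A549 by 2.00 ± 0.12 (adjusted p = 1.4e-09) and in MDA-MB-231 by 0.25 ± 0.11 (adjusted p = 0.044). The MDA-MB-231 rise of PPARA did not pass without any single library of that line and was -0.11 on log2(TPM + 1). PPARG, a receptor of fat cells, fell in MDA-MB-231 by 1.64 ± 0.07 (adjusted p = 1.8e-10), while its A549 value of 0.17 ± 0.07 had an adjusted p of 0.053 and was -0.32 on log2(TPM + 1).

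Genes that handle retinoids gave 6 higher and 4 lower of 12 tested in A549 3D, and 4 higher and 3 lower in MDA-MB-231 3D. The MDA-MB-231 share that rose, 33.3%, is that of all genes tested (33.4%), and in A549 it was 50.0%, beside 34.1%. On log2(TPM + 1) the counts were 4 and 5 in A549 and 3 and 4 in MDA-MB-231. RDH10, which oxidises retinol on the way to retinoic acid, rose in A549 by 1.95 ± 0.09 (SE, log2, adjusted p = 7.7e-11) and fell in MDA-MB-231 by 0.39 ± 0.13 (adjusted p = 0.014), though not without MDA-MB-231 2D replicate 3 (adjusted p = 0.070). RARRES1, a gene induced by retinoids in skin, rose in A549 by 5.27 ± 0.13 (adjusted p = 9.4e-14), to 162 ± 15.6 CPM in 3D against 4.21 ± 0.651 CPM in 2D. In MDA-MB-231 its mean was 0.262 ± 0.0996 CPM in 3D and 0.216 ± 0.108 CPM in 2D, which overlap.

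Of 8 tested epoxide hydrolases and eicosanoid enzymes, 7 rose and none fell in A549 3D (edgeR, 0 lower also at an unadjusted p under 0.05), and 5 rose and 1 fell in MDA-MB-231 3D. The share that rose was 87.5% in A549 and 62.5% in MDA-MB-231, beside 34.1% and 33.4% of all genes tested. The list's median log2 fold change was 3.80 in A549 and 1.28 in MDA-MB-231, against 0.03 and 0 for all genes tested. On log2(TPM + 1) the counts were 6 and 2 in A549 and 4 and 1 in MDA-MB-231. PTGS2, the inducible cyclooxygenase, rose by 3.98 ± 0.14 (SE, log2) in A549 (adjusted p = 2.2e-12) and by 1.99 ± 0.12 in MDA-MB-231 (adjusted p = 2.8e-09). PTGS1, the constitutive form, rose by 3.93 ± 0.16 in A549 (adjusted p = 2.1e-11) and fell by 2.00 ± 0.25 in MDA-MB-231 (adjusted p = 4.3e-06). A pair of tested P450 genes outside the rule had the same direction in both lines. TBXAS1, thromboxane synthase, rose by 2.91 ± 0.13 in A549 (adjusted p = 4.1e-11) and by 1.09 ± 0.15 in MDA-MB-231 (adjusted p = 1.3e-05). CYP51A1, the demethylase of cholesterol synthesis, fell by 0.80 ± 0.10 in A549 (adjusted p = 3.9e-06) and by 0.93 ± 0.10 in MDA-MB-231 (adjusted p = 1.2e-06).

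Markers of cell identity were checked because P450 genes are strong in liver, lung and steroid-making cells. Of 6 tested genes of the A549 epithelial list, 4 rose and 1 fell in A549 3D, and its summed level was 6024 to 8855 TPM in 3D and 5791 to 5916 TPM in 2D libraries of A549. Its keratins did not move together: KRT8 had 3252 TPM in A549 3D and 1377 TPM in A549 2D, and KRT7 had 448 TPM in A549 3D and 2361 TPM in A549 2D. On CPM, KRT8 rose by 1.80 ± 0.10 (SE, log2, adjusted p = 4.6e-10) and KRT7 fell by 1.83 ± 0.11 (adjusted p = 8.2e-10). In MDA-MB-231, the mesenchymal marker VIM was high, at 3052 TPM in 3D and 2961 TPM in 2D. In A549 it had 300 TPM in 3D and 642 TPM in 2D. ZEB1, of the same list, had 16.2 TPM in MDA-MB-231 3D and 35.3 TPM in MDA-MB-231 2D. Of 7 tested genes of that list, which also holds KRT8 and KRT18, 6 rose and 1 fell in MDA-MB-231 3D. Of all genes tested, 33.4% rose and 34.2% fell there. The alveolar markers NKX2-1, SFTPB, SFTPC and SFTPA1 averaged at most 0.0900 TPM in both A549 groups, while NKX2-1 had 0.937 TPM in MDA-MB-231 2D. EPCAM, also of the A549 list, had 33.7 TPM in MDA-MB-231 2D and 3.36 TPM in A549 2D. Of the 6 tested genes of that list, 4 were higher and 2 lower in A549 than in MDA-MB-231 in 2D. Of all genes tested, 42.8% were higher and 38.8% lower there. All 5 tested genes of a hepatocyte list of 7 rose in A549 3D, beside 34.1% of all genes tested, and the list's summed level was 119 to 184 TPM in A549 3D libraries, against 8.76 to 9.69 TPM in A549 2D libraries. It was led by APOH, at 102 TPM in 3D and 5.98 TPM in 2D, while ALB averaged 1.00 TPM in 3D and 0.0200 TPM in 2D, and APOA2 was at 0 in both. In MDA-MB-231 the same list summed to 104 to 124 TPM in 3D and 36.4 to 41.4 TPM in 2D, mostly SERPINA1, with ALB at 0 in 3D. The leukocyte list summed to 16.8 to 29.1 TPM in A549 3D and 4.55 to 5.07 TPM in A549 2D, and to 247 to 274 TPM in MDA-MB-231 3D and 129 to 148 TPM in MDA-MB-231 2D, while CD3E was at 0 throughout and PTPRC averaged at most 0.273 TPM. It was led by CD14 in A549 3D (12.4 TPM) and by CD68 in MDA-MB-231 3D (240.0 TPM). The highest library sum was 4.89 TPM for the fibroblast list, 5.65 TPM for the endothelial list and 0.210 TPM for the list of steroid-making cells. The part these genes' cells or programs play in the P450 values was not tested.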

How the data were processed

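Gene tables of 12 libraries were used, 3 in each of 4 groups (A549 3D, A549 2D, MDA-MB-231 3D and MDA-MB-231 2D). The deposited values are expected counts and TPM per gene, per the file headers, and were made with RSEM on hg19, per the submitters' processing notes. Not given in the sources used here are the aligner, the strand setting and the annotation release. No column of another series was present (0 columns). Fragment length was taken as the deposited length minus the effective length, in bases.

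Expected counts were rounded to whole numbers, filtered with filterByExpr (15304 of 27968 genes kept), scaled by TMM (factors 0.809 to 1.13) and fitted with edgeR 4.0.16 in R 4.3.3 as a quasi-likelihood model of 4 group means over 12 libraries. All p-values were adjusted by the Benjamini-Hochberg method over all genes tested, with a threshold of 0.05, and 5 comparisons were made. The model was tested on simulated data with known changes. Standard errors of edgeR fold changes were derived from the test, as the absolute log2 fold change divided by the square root of its F value. Other errors are SD. Levels of different genes were compared only in the deposited TPM. Alternatives were RLE scaling, no filter or a CPM filter, a replicate block, small and structural RNA genes left out, fits on the compared groups only, each library left out in turn, DESeq2 1.42.0, and limma 3.58.1 on log2(TPM + 1) and log2(TPM + 0.1). The same alternatives were run for the named genes outside the family, a choice made after seeing the data.

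Named genes are the members with a mean of at least 1 TPM in a group, or with a passed test and a log2 CPM that averaged 0 or more, plus up to 2 genes of each list by smallest p. CYP3A7, CYP27B1, POR and VDR, the untested members with read counts and the markers given with levels were named after their values were seen. The members and lists were chosen with earlier results of these data known. Bounds against groups without reads take 3 reads over the group, and counting intervals and bounds cover counting error only. Transcript identity was measured with blastn 2.17.0 on the longest reference transcript of each gene, and motifs were sought in RefSeq promoter windows with Python 3.11.15. The labels state no date or batch, so none was fitted. Results for some named genes are not reported here.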

Additional observations from a re-analysis of the deposited data

Results flagged for a closer look

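Of the 22 tested P450 genes, 12 had a change with 3D culture that differed between the lines, by a test of the difference itself (edgeR, A549 change minus MDA-MB-231 change on the log2 scale, adjusted over all genes tested). This share of 54.5% is near the 56.1% of all genes tested that passed the same test. CYP26A1, CYP4F3, CYP4F11 and CYP4F12 are among the 22 but had no read in MDA-MB-231, so they could not pass it. The A549 change was the higher one for CYP3A5 (4.74), CYP24A1 (2.97), CYP2S1 (2.73), CYP39A1 (2.36), CYP26B1 (2.26), CYP4V2 (1.29), CYP2R1 (0.79) and CYP2U1 (0.56). CYP3A7 passed as well, also with the higher change in A549 (adjusted p = 0.0019), but it had 2 reads in A549 2D, and MDA-MB-231 gave 0 reads for 3D and 3 reads for 2D, so its fitted difference depends on the prior count and is not given. The A549 change was lower for CYP1A1 (-2.88), CYP1B1 (-1.23) and CYP20A1 (-0.33). CYP1A1, CYP3A5, CYP26B1 and CYP4V2 passed in each line with opposite signs in the main fit. The CYP1A1 fall in A549 did not pass with a certain A549 2D library left out. The CYP3A5 fall in MDA-MB-231 rested on few reads, and did not pass with DESeq2 or with any of several single libraries left out. The CYP4V2 rise in A549 did not pass on log2(TPM + 1). No cause was tested.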

How the results depend on the processing

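Counts of P450 members kept within 1.5 times of their values under all alternatives run, with these exceptions. P450 members lower in A549 3D than in A549 2D numbered 9 on log2(TPM + 1) and 10 on log2(TPM + 0.1), against 5. P450 members higher in A549 than in MDA-MB-231 in 3D numbered 22 without a filter, where rare genes enter, and 11 were lower on either TPM scale. For the difference between lines in the 3D change, 14 were higher and 7 lower on log2(TPM + 1), and 5 were lower on log2(TPM + 0.1). Summed TPM of P450 members without the leading gene was 126 (A549 3D), 70.5 (A549 2D), 72.3 (MDA-MB-231 3D) and 103 (MDA-MB-231 2D). Leaving out each library gave 10 to 12 P450 members higher and 4 to 5 lower in A549 3D, 3 higher and 7 to 8 lower in MDA-MB-231 3D, 10 to 11 higher and 9 lower for the lines in 2D, 12 and 7 in 3D, and 8 to 10 and 2 to 3 for the difference. Single-gene values turned sign mainly between CPM and log2 TPM with 1 or 0.1 added. The median of all genes also moved there, to -0.38 (A549) and -0.25 (MDA-MB-231) for 3D against 2D on log2(TPM + 1). For the difference in the 3D change it moved less, from 0.07 on CPM to -0.05 on log2(TPM + 1). On log2(TPM + 1) and log2(TPM + 0.1), A549 3D against 2D was -0.33 and -0.34 for CYP1B1, -0.40 and -0.40 for CYP24A1, -0.028 and -0.22 for CYP2J2 (on CPM -0.24 without A549 3D replicate 3, with a range of -0.24 to 0.77 over libraries left out), -0.30 and -0.41 for CYP2U1, -0.18 and -0.18 for POR, and -0.32 and -0.33 for PPARG. MDA-MB-231 3D against 2D was -0.20 and -0.29 for CYP2S1, -0.12 and -0.12 for TIPARP, -0.11 and -0.14 for PPARA, and -0.081 and -0.23 for RARRES1. Over libraries left out, MDA-MB-231 3D against 2D ran from -0.080 to 0.65 for RARRES1 (negative without MDA-MB-231 2D replicate 3 or, at -0.019, 3D replicate 1), from -0.060 to 0.041 for VDR (positive without 3D replicate 2) and from -0.26 to 0.098 for CYP39A1 (positive without 3D replicate 3). Between the lines, CYP1B1 in 2D was -0.58 and -0.60, and CYP20A1 was -0.050 and -0.058 in 2D and -0.38 and -0.50 in 3D. The difference in the 3D change was -0.39 and -1.08 for CYP7B1 (-0.78 with DESeq2, and -1.25 to 0.75 over libraries left out, negative without MDA-MB-231 2D replicate 1), -0.45 for CYP27A1 on log2(TPM + 1), and -0.81 and -0.61 for CYP27C1. On average CYP27C1 had 0.0433 TPM in MDA-MB-231 3D and 0.23 TPM in MDA-MB-231 2D, below the added 1. CYP27A1 had 0.203 TPM in A549 3D and 0.0567 TPM in A549 2D, also below it. The cause was not tested. No pairing by replicate number was seen, since same-numbered libraries correlated at -0.19 to 0.16 in their deviations from group means. With 3 libraries a group, these values cannot exclude a pairing. With the replicate block, P450 members counted 11 higher and 5 lower for A549 3D, 3 higher and 8 lower for MDA-MB-231 3D, 10 and 9 for the lines in 2D, 12 and 7 in 3D, and 9 and 2 for the difference. Depth limits members near 1 CPM, above all in A549 3D replicate 2, the shallowest library.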
